A study of Homo sapiens with 4 samples.

Results

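The KLF genes encode Krüppel-like transcription factors, and 10 of the 18 human KLF genes were examined here, chosen by gene symbol: KLF1, KLF2, KLF3, KLF4, KLF5, KLF6, KLF10, KLF11, KLF13 and KLF16. All 10 had a row in each of 4 expression tables of 17630 genes analysed. The tables come from the H1 human embryonic stem cell line, taken towards blood in a stepwise culture. The groups, in the order of the culture, were undifferentiated H1 cells (hESC), the mesoderm stage (MES, day 2, sorted as APLNR+, the apelin receptor), cells labelled HEP (day 4, sorted as CD31+CD34+) and cells labelled HPC (day 7, sorted as CD31+CD43+). MES cells had received activin A at 40 ng/ml and BMP4 at 50 ng/ml for 2 days. HEP cells had then received VEGF at 40 ng/ml and bFGF at 50 ng/ml for 2 days, and HPC cells a further 3 days of the same pair plus SB-431542, which blocks the receptors that activin and NODAL use. All groups carry the same H1 background, each is 1 library, and no sort is stated for hESC. Values therefore have no replicate error, no test was possible, and the depth behind them is unknown.

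KLF proteins bind CACCC and GC-rich boxes in DNA through a conserved group of zinc fingers at their carboxyl end, a domain that they share with the SP factors. Their other parts recruit coactivators or corepressors, so members activate or repress. KLF1 is known as the red cell activator of the family, KLF2 and KLF4 as factors of quiescent, flow-exposed endothelium, and KLF2, KLF4 and KLF5 as parts of the pluripotency network of mouse embryonic stem cells. KLF4 is also one of the classical reprogramming factors.

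KLF1, KLF2 and KLF6 were the 3 members that passed the rule of size in a step of the culture, each with its highest value at a different stage, and the promoters of these 3 are shown for that reason. The windows run from 250 bases before to 50 bases after the start site, from RefSeq on build GRCh38.p14, printed in the direction of the gene. They are chr19:12887152-12887451, minus strand, for KLF1, chr19:16324576-16324875, plus strand, for KLF2, and chr10:3785160-3785459, minus strand, for KLF6. Capitals mark matches on either strand to CACCC (the box that KLF proteins bind), GGGCGG (a GC box), GATAA (the core of GATA sites) and the MEF2 consensus, which has 10 letters.
KLF1: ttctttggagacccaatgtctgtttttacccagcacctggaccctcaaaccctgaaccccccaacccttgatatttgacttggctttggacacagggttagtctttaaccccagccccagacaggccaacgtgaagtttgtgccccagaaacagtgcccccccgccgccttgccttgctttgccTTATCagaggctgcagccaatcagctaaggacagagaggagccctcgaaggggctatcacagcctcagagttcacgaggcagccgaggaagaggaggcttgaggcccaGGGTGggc
KLF2: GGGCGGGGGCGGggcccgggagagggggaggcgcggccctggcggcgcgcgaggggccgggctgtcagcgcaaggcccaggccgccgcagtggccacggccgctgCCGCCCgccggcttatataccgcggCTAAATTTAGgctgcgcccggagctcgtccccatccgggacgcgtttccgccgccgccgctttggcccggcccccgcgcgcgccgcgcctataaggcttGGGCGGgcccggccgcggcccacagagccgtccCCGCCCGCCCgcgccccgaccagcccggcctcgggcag
KLF6: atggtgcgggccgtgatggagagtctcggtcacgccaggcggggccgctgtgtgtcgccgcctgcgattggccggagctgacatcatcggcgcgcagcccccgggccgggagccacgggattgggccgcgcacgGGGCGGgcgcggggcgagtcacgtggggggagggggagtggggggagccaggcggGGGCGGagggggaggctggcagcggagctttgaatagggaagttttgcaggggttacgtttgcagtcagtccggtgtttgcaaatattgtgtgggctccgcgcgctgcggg

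The KLF1 window held 1 match to GATAA, on the opposite strand with its first base 66 bases before the start, and 1 to CACCC at base 43 of the transcribed part, also on the opposite strand. The KLF2 window held 1 match to the MEF2 consensus, CTAAATTTAG, starting 120 bases before the start, and 6 to GGGCGG, some of which overlap each other. The KLF6 window held 2 matches to GGGCGG and none to the other motifs. Of 35116 promoters of the same length, 22.7% held GATAA, 59.9% CACCC, 45.0% GGGCGG and 2.99% the MEF2 consensus. The matches are a description of letters and were not tested for binding. For 8 members promoters were read, 10 windows in all, since KLF5 and KLF11 had 2 each. Member windows on chromosome 8, which holds KLF10, were left out, and KLF3 had no window. Among the 10 windows read, none other than that of KLF1 held GATAA, and none other than that of KLF2 held the MEF2 consensus. GC content of the windows ranged from 40.7% in 1 of the KLF5 windows to 86.0% in that of KLF16. KLF2 has a divergent transcript, KLF2-DT, that starts nearby on the other strand. Strand use in the counting is not stated, so reads of the 2 transcripts cannot be told apart where they overlap.

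The values are a normalised signal per gene whose scaling to transcript length is not stated, so levels are compared between stages and not between genes. A gene is called higher or lower when its signal + 1 differed at least 2-fold, a log2 difference of 1 or more in size, with a signal of 5 or more in the higher library. By their signals, 1 member stood at 5 or more in all 4 libraries (KLF13), 2 in 2 libraries (KLF1 and KLF6), 2 in 1 library (KLF2 and KLF10) and 5 in none (KLF3, KLF4, KLF5, KLF11 and KLF16). Those 5 could not be called. As deposited, none of the 10 had its highest signal in hESC: MES was highest for 3, HEP for 4 and HPC for 3, while hESC was lowest for 7. The share of all genes with such orders was not computed, so these counts describe the 10 genes and not the family. KLF12 and KLF15, outside the 10, were highest in hESC. Some orders rest on near ties: with the trend with GC content, described below, removed, KLF10 was highest in HEP and KLF13 in MES.

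**Figure D1:**
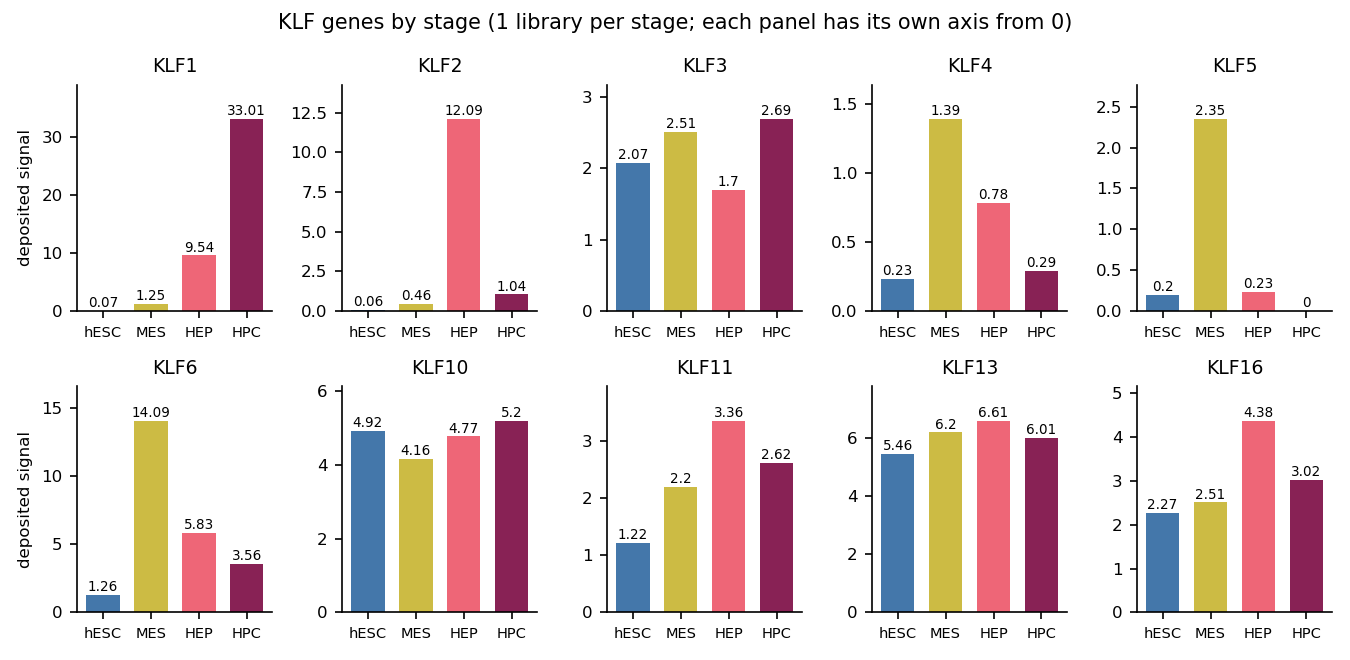
Deposited signal (linear axis from 0, its own for each gene) of the 10 KLF genes in hESC, MES, HEP and HPC, with 1 library per bar and no error. KLF6 peaks in MES, KLF2 in HEP and KLF1 in HPC, while KLF10 and KLF13 differ little in these deposited values; with the GC trend removed the highest KLF10 value is 2.16 times the lowest.

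The sort antigens and markers fixed for each cell type were read as a check of the stages. APLNR stood at 0.57 (hESC), 344 (MES), 250 (HEP) and 15.6 (HPC), CD34 at 0.13, 1.35, 43.6 and 18.4, and SPN, which encodes CD43, at 0.11, 0.08, 0.97 and 24.4 in the same order. PECAM1, which encodes the CD31 of the HEP and HPC sorts, was at 0.01, 0.01, 1.83 and 7.49, and its low signal in HEP was not called against MES. The summed signal of 6 pluripotency markers was 2569 (hESC), 973 (MES), 299 (HEP) and 127 (HPC), with POU5F1 at 112 in HEP and 15.4 in HPC. The summed signal of 6 mesoderm markers was 0.71 (hESC), 246 (MES), 25.3 (HEP) and 2.95 (HPC). That of 7 endothelial markers was 33.2, 65.8, 561 and 269, and that of 6 red cell markers 2.85, 9.65, 8.70 and 527. HPC also held markers of other lineages: 6 megakaryocyte markers summed to 2.86, 1.67, 6.32 and 405 and 6 leukocyte markers to 1.04, 7.76, 17.8 and 91.2, with PTPRC, which encodes CD45, at 0.04 in HPC. For 6 smooth muscle and mesenchyme markers the sums were 111, 608, 310 and 53.9. TAGLN held most of that sum in hESC, MES and HEP, at 94.8, 561 and 233. ACTA2 ran the other way, at 0.72, 1.68, 6.81 and 19.2. In HPC against HEP, 1 of the 6 was higher (ACTA2) and 3 were lower (TAGLN, CNN1 and COL1A1). All these sums weigh most the genes of highest signal, such as HBE1 at 442 of the 527 for red cell markers in HPC. A change in the share of cells of one type and a change in the RNA per cell cannot be told apart in such bulk libraries. The part of these other cells in the KLF values was not tested.

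Differences between libraries also moved with GC content of the transcripts. Across 6366 genes, which are not independent, Spearman's rho between GC content and the log2 difference was 0.22 for MES against hESC, 0.71 for HEP against MES, -0.43 for HPC against HEP and 0.53 for HPC against hESC. KLF1 transcripts have a GC content of 65.7% and KLF2 transcripts 66.8%, above 96.5% and 97.8% of genes, and KLF16 transcripts 72.7%. KLF6 transcripts, at 45.9%, lie below the median of 50.6%. Values with this trend removed from each library are given for the members where they change the reading. Its removal also takes out the overall shift in scale of each library, so a change from the deposited value mixes both. For genes of the lists, calls that were lost or gained without the trend are named where the count is given.

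Over the 10 members, 1 was higher (KLF6) and 0 lower in MES than in hESC, where 3.79% of all 17630 genes passed the rule upwards and 3.7% downwards. In HEP against MES, 2 were higher (KLF1 and KLF2) and 1 lower (KLF6), where 3.32% of all genes were higher and 13.9% lower. For HPC against HEP, 1 was higher (KLF1) and 1 lower (KLF2), against 3.01% and 3.57% of all genes. In HPC against hESC, 1 was higher (KLF1) and 0 lower, against 4.67% and 15.8%. Each count rests on 1 or 2 genes, so these counts describe the genes named and not the family. The median log2 difference of the members was 0.49 for MES against hESC, 0.12 for HEP against MES, -0.28 for HPC against HEP and 0.28 for HPC against hESC. Over the 12075 genes it was -0.12, -0.40, 0.07 and -0.44.

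**Figure D2:**
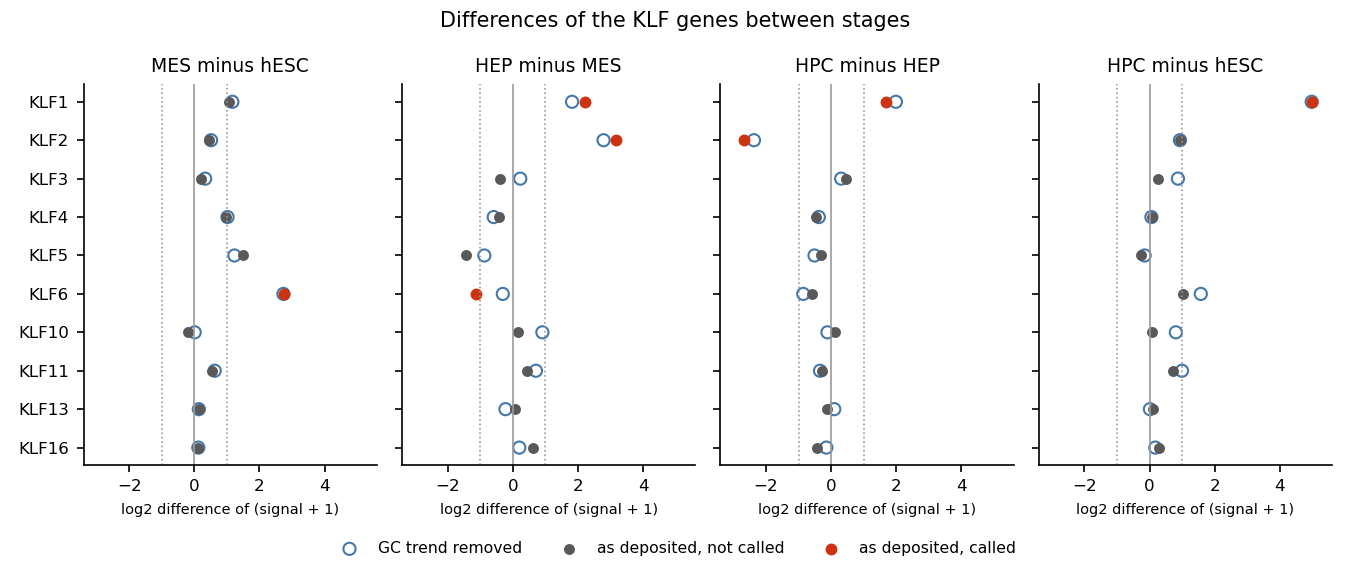
Log2 difference of (signal + 1) of each KLF gene in 4 comparisons of 1 library with 1 library, as deposited (filled, red where called) and with the trend with GC content removed (open circles); dotted lines mark a size of 1. Of the 7 called differences, that of KLF6 in HEP minus MES (-1.14) is the one whose open circle (-0.31) lies inside the lines.

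KLF1, which encodes the activator of red cell genes, had its signal at 0.07 (hESC), 1.25 (MES), 9.54 (HEP) and 33.0 (HPC). The order of the stages in the culture is thus also the order of its levels, and HPC held 3.46 times the signal of HEP, the next below. The log2 difference of (signal + 1) was 1.07 for MES against hESC, which did not pass the rule because the MES signal was below 5, 2.23 for HEP against MES and 1.69 for HPC against HEP, both called higher. Of the 6 red cell markers 0 were higher in HEP than in MES and 1 was lower, GYPB (1.41 in HEP, against 5.02 in MES), a call lost with the GC trend removed (-0.23), while EPOR, the erythropoietin receptor, stood at 5.67 in HEP, against 2.45 in MES, without passing the rule. With the trend removed the KLF1 differences were 1.17, 1.82 and 1.99. For HPC against hESC the difference was 4.99, or 4.98 with the trend removed.

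Red cell genes known to need KLF1 were read from a list of 15 genes, of which 10 had a signal of 1 or more in any library. In HEP against MES, 1 was higher (CD44, a hyaluronan receptor) and 1 lower (BLVRB, a biliverdin reductase), with a median log2 difference of -0.07 over the 10, beside -0.40 over all 12075 genes with a signal of 1 or more in any library. In HPC against HEP, 5 of the 15 were higher (ALAS2, ICAM4, HBB, BLVRB and CD44) and 0 lower, with a median of 1.59 beside 0.07. HBB stood at 8.32 in HPC, against a listed 0 in HEP (log2 difference 3.22). ALAS2, the red cell enzyme that opens heme synthesis, stood at 40.3 in HPC, against 0.73 in HEP (log2 difference 4.58). ICAM4, a blood group adhesion molecule, stood at 40.8 in HPC, against 3.07 in HEP (3.36). SLC4A1, the anion exchanger of the mature red cell, was at 0.02 in HPC, against a listed 0 in HEP, and AHSP, the alpha-globin chaperone, at 0.93 in HPC, against 0.06 in HEP, with its highest signal in hESC (3.22). Neither passed the rule, and both were picked out after their values were seen.

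KLF2, which encodes a shear-stress induced factor of endothelium, had its signal at 0.06 (hESC), 0.46 (MES), 12.1 (HEP) and 1.04 (HPC). HEP stood apart, at 11.6 times the signal of HPC, the next below. KLF2 was called higher in HEP than in MES (log2 difference 3.16, or 2.79 with the GC trend removed) and lower in HPC than in HEP (-2.68, or -2.37). HPC and hESC differed by 0.94, with neither library at 5. KLF4, its close relative with overlapping functions in endothelium, had its signal at 0.23 (hESC), 1.39 (MES), 0.78 (HEP) and 0.29 (HPC). KLF4 was thus highest in MES and not in HEP, and at these low signals no difference passed the rule.

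Of 10 vessel genes known to depend on KLF2 or KLF4, 3 were higher and 2 lower in HEP than in MES, and 0 were higher and 5 lower in HPC than in HEP. The medians over the 8 genes with a signal of 1 or more in any library were 1.47 and -1.34, beside -0.40 and 0.07 over all 12075 such genes. CDH5, the endothelial cadherin, stood at 73.5 in HEP, against 0.14 in MES (log2 difference 6.03), and at 25.1 in HPC (-1.51 to HEP). NOS3, the endothelial nitric oxide synthase, stood at 30.7 in HEP, against 0.57 in MES (4.34), and at 4.81 in HPC (-2.45 to HEP). TEK, the angiopoietin receptor, was higher in HEP than in MES too, and lower in HPC than in HEP. ASS1, an enzyme of arginine synthesis, went the other way, with 10.4 in HEP, against 69.2 in MES (-2.62). THBD, which encodes thrombomodulin, reached 2.83 in HEP, against 0.37 in MES, and did not pass the rule. S1PR1, from the same list, stood at 0.22 in MES, 2.36 in HEP and 2.28 in HPC. It did not pass the rule either, and it barely fell from HEP to HPC, unlike KLF2. Endothelial markers moved with KLF2: 7 of 7 were higher in HEP than in MES and 5 of 7 lower in HPC than in HEP. CDH5 and TEK belong to both lists, so the lists are not separate observations. Their part in the KLF2 values was not tested.

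Upstream of KLF2 lie the ERK5 kinase cascade with MEF2 factors, which activates it, and the CCM complex with HEG1, which restrains that cascade. Of 11 such genes, 2 were higher in HEP than in MES, PIEZO1, a mechanically gated channel (17.8 in HEP, against 6.13 in MES), and MAP3K3, the kinase at the head of the cascade (20.2, against 9.59), whose log2 difference of 1 lies on the bound. PDCD10, a CCM subunit, was lower, at 2.85 in HEP (log2 difference -2.45 to MES). With the GC trend removed 1 of the 11 was higher (PIEZO1, 1.06) and 0 lower, with PDCD10 at -0.88. In HPC against HEP, HEG1 was lower, at 0.92 in HPC, against 5.07 in HEP (-1.66), and no gene was higher. MEF2C had its highest signal at 0.09 and MEF2A at 3.02.

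KLF6, a widely expressed member known as an early-response gene, had its signal at 1.26 (hESC), 14.1 (MES), 5.83 (HEP) and 3.56 (HPC). MES was highest, at 2.42 times the signal of HEP, and hESC lowest. KLF6 was called higher in MES than in hESC, with a log2 difference of 2.74 in the deposited values and with the GC trend removed alike. It was called lower in HEP than in MES (-1.14), but this call is lost with the GC trend removed (-0.31) and under each of 3 rescalings of the libraries (-0.86 to -0.95). In HPC against hESC the difference was 1.01, with both signals below 5.

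Immediate early genes, which dissociation and sorting can induce, moved with KLF6. In MES against hESC, 6 of 10 were higher and 0 lower (median log2 difference 1.76), and 2 were higher and 5 lower in HEP than in MES (median -0.77). Over all 12075 genes with a signal of 1 or more in any library the medians were -0.12 and -0.40. JUNB lost its higher call in HEP with the GC trend removed. IER3 stood at 158 in MES, against 8.47 in hESC (4.07), JUN at 53.7, against 3.17 (3.71), FOS at 56.3, against 4.00 (3.52), and EGR1 at 12.6, against 0.32 (3.37). In HPC the genes of this list parted, with FOS at 70.5 in HPC, against 19.8 in HEP, and IER3 at 1.43 in HPC, against 19.1 in HEP, while KLF6 stood at 3.56 in HPC, against 5.83 in HEP. Only the hESC library has no stated sort, so the effects of the sort and of the culture on these genes cannot be told apart.

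**Figure D3:**
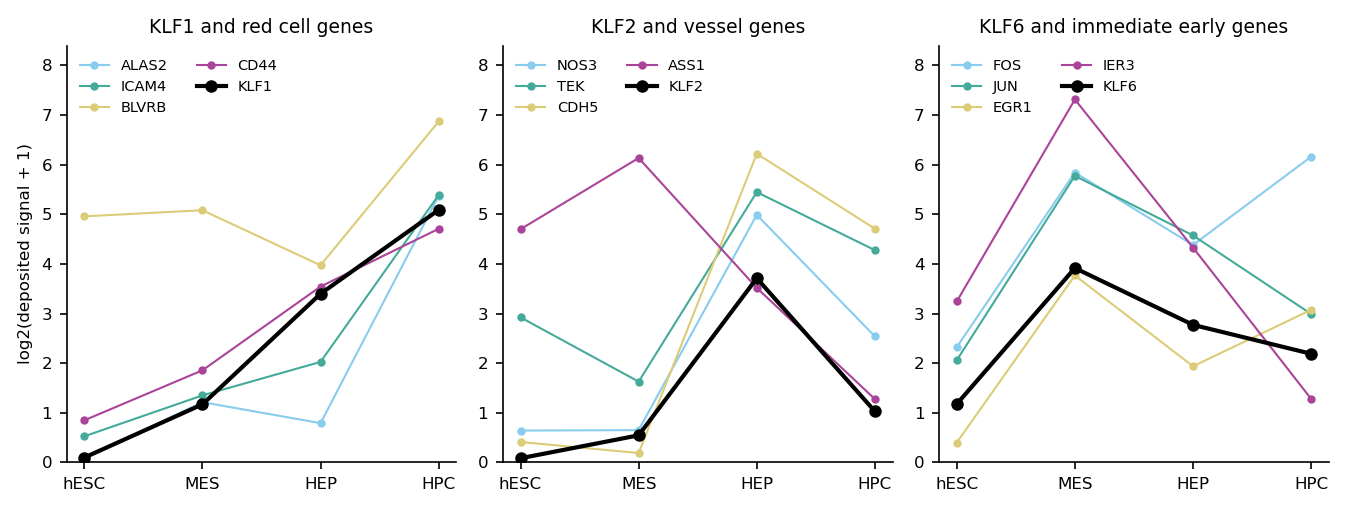
Log2 of (deposited signal + 1) by stage for KLF1, KLF2 and KLF6 (black, thick), each with 4 genes of its list; lines join single libraries. KLF1 was highest in HPC, as ALAS2 was, and KLF2 peaked in HEP with NOS3, TEK and CDH5 but not ASS1. KLF6 peaked in MES with JUN, EGR1 and IER3 but not FOS, which was highest in HPC.

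KLF5, which encodes a factor of epithelia and of pluripotent cells, had its signal at 0.20 (hESC), 2.35 (MES) and 0.23 (HEP), and was listed at 0 in HPC. MES held 10.2 times the signal of HEP, the next below, yet the log2 differences of 1.48 for MES against hESC and -1.45 for HEP against MES could not pass the rule at these signals, and the second of these was -0.87 with the GC trend removed. In the stem cells, KLF2 (0.06), KLF4 (0.23) and KLF5 (0.20) all stood below a signal of 1, and KLF17, known in human naive pluripotent cells, was listed at 0. A list of 10 genes named for naive pluripotency was also read, and it does not by itself measure that state. Of the 10, 2 were higher in MES than in hESC. These were the T-box factor TBX3 (22.4 in MES, against 0.12 in hESC) and the trophoblast and germ cell factor TFAP2C (5.12, against 0.37). In the same comparison 2 were lower, PRDM14 (2.40 in MES, against 23.6 in hESC) and ZFP42 (59.8, against 144). The ZFP42 call was lost with the GC trend removed (-0.97, against -1.26 as deposited).

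KLF10 and KLF11 encode repressors first described as early targets of TGF-beta that recruit the SIN3A corepressor. KLF10 had its signal at 4.92 (hESC), 4.16 (MES), 4.77 (HEP) and 5.20 (HPC), with the highest 1.25 times the lowest. KLF11 stood at 1.22 (hESC), 2.20 (MES), 3.36 (HEP) and 2.62 (HPC). Neither was called in any of the 4 comparisons. With activin A and BMP4 in the medium, KLF10 differed by -0.20 between MES and hESC (0.01 with the GC trend removed) and KLF11 by 0.53. Effects of activin A and of BMP4 cannot be told apart here. Of 10 early TGF-beta family targets, 6 were higher in MES than in hESC and 1 was lower, TGIF1 (49.4 in MES, against 101 in hESC). With the GC trend removed the 6 remained and the TGIF1 call was lost (-0.85, against -1.02 as deposited). Among the 6 were BAMBI, a pseudoreceptor (147 in MES, against 14.4 in hESC, log2 difference 3.27), and the inhibitory SMAD6 (9.94, against 0.45, 2.92). In HPC, after SB-431542, 1 of the 10 was higher than in HEP and 3 were lower (4 with the GC trend removed, by adding SKIL), with the inhibitory SMAD7 at 1.54 in HPC, against 13.9 in HEP (-2.55). In that comparison KLF10 differed by 0.10 and KLF11 by -0.27. HPC also differed from HEP in day and sort, so an effect of SB-431542 cannot be told apart from these. The KLF10 values changed when the GC trend, fitted on genes with a mean signal of 5 or more, was removed. With the trend removed they were 3.30 (hESC), 3.33 (MES), 7.14 (HEP) and 6.52 (HPC), the highest 2.16 times the lowest. The log2 difference was then 0.91 for HEP against MES (0.16 as deposited) and 0.81 for HPC against hESC (0.07 as deposited). With median-of-ratios scaling of the libraries alone these KLF10 differences were 0.45 and 0.48, so part of the change came with scale. For KLF11 the difference of HPC to hESC was 0.99 with the trend removed and 0.71 as deposited. It was 1.07 with median-of-ratios scaling alone, so this change cannot be credited to GC content.

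KLF13 and KLF16, which also bind SIN3A, and KLF3, a repressor that acts through CTBP proteins and a known KLF1 target in mouse red cells, were called in none of the 4 comparisons. KLF13 had its signal at 5.46 (hESC), 6.20 (MES), 6.61 (HEP) and 6.01 (HPC), KLF16 at 2.27, 2.51, 4.38 and 3.02, and KLF3 at 2.07, 2.51, 1.70 and 2.69. The highest signal was 1.21 times the lowest for KLF13, 1.93 times for KLF16 and 1.58 times for KLF3. With the GC trend removed KLF3 followed the order of the stages, at 1.39 (hESC), 2.01 (MES), 2.54 (HEP) and 3.37 (HPC), and the highest value was 2.42 times the lowest. Its log2 difference of HPC to hESC was then 0.87 (0.27 as deposited, 0.63 with median-of-ratios scaling alone). That of HEP to MES changed sign (0.23, against -0.38 as deposited and -0.17 with that scaling alone). KLF13 changed sign in that step too (-0.22, against 0.08 as deposited), and its highest value without the trend was 1.20 times the lowest. For KLF16 the difference of HEP to MES was 0.62 as deposited and 0.20 with the trend removed. Among all 12075 genes with a signal of 1 or more in any library, the range of log2(signal + 1) over the 4 libraries had a median of 1.29. The range was 0.24 for KLF13 and 0.26 for KLF10, smaller than in all but 1.24% and 1.71% of these genes. With the GC trend removed the range of KLF13 was 0.22, with 1.80% of 11857 genes below it. The GC content used for KLF13 is a median over annotated transcripts, whose median length is 574 bases. It may not be that of the RNA counted, and the range of KLF13 without the trend shares this limit. The range of KLF10 with the trend removed was 0.92, with 44.6% of genes below it. At the other end, KLF1 had a range of 4.99, more than 99.1% of these genes, KLF2 3.63 (96.3%) and KLF6 2.74 (89.4%).

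Of 12 genes for cofactors of the family, 11 had a signal of 1 or more in any library. WWP1, a ubiquitin ligase that targets KLF2 and KLF5, was higher in MES than in hESC (19.5 in MES, against 5.62 in hESC) and lower in HEP than in MES (1.37 in HEP), with a log2 difference of -3.12. HDAC2 and EP300, a deacetylase and an acetyltransferase, were lower in HEP than in MES as well, EP300 close to the bound. CTBP1 stood at 43.6 (hESC), 44.7 (MES), 58.9 (HEP) and 51.3 (HPC), and SIN3A at 8.90, 8.29, 3.71 and 3.57. The WWP1 difference of HEP to MES was -1.62 with the GC trend removed, where also the EP300 call was lost (-0.77), SIN3A was called lower (-1.08) and FBXW7, another ubiquitin ligase, higher (1.16). In HPC against hESC, 0 of the 12 were higher and 4 lower, namely SIN3A, CTBP2, HDAC2 and WWP1. With the trend removed 1 was higher (FBXW7) and 3 lower, as WWP1 lost its call (0.16, against -1.24 as deposited).

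The remaining KLF genes and the SP factors share the zinc finger domain. Of 7 other KLF genes in the tables, 1 was called: KLF8, a repressor, had its signal at 0.67 (hESC), 5.91 (MES), 1.35 (HEP) and 0.42 (HPC), and was higher in MES than in hESC (log2 difference 2.05) and lower in HEP than in MES (-1.56). Both calls held with the GC trend removed (2.08 and -1.47). KLF8 was thus highest in MES, as KLF4, KLF5 and KLF6 were. KLF7 was highest in MES too, at 1.08, 2.63, 1.73 and 0.57, without passing the rule. KLF15 ran the other way without passing the rule, at 4.37, 2.59, 1.44 and 0.84, and KLF9, KLF12, KLF14 and KLF17 stayed below a signal of 1 throughout. Of 9 SP factors, SP6 was highest in HEP by far, with 0.55 (hESC), 4.51 (MES), 75.4 (HEP) and 2.86 (HPC), and SP7, known from bone, stood at 0.03, 0.03, 5.17 and 0.15. Both were called higher in HEP than in MES and lower in HPC than in HEP, as KLF2 was. With the GC trend removed SP6 kept both calls (3.48 and -4.11), while SP7, at 2.41 and -2.25, lost both because its signal then lay below 5. SP5, a WNT target, had 0.06, 10.7, 16.0 and 2.78, and SP3, a widely expressed factor, 21.4, 20.4, 3.51 and 3.59. SP3 was called lower in HEP than in MES as deposited (-2.24) and not with the GC trend removed (-0.66).

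**Figure D4:**
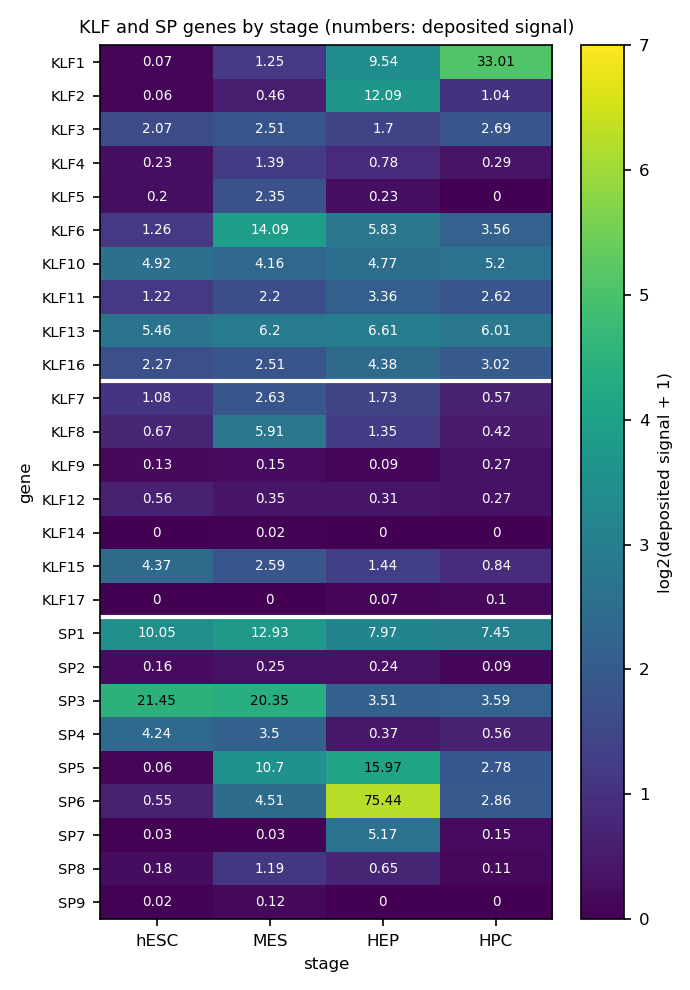
Deposited signal (numbers) and log2 of (signal + 1) (colour) in hESC, MES, HEP and HPC for the 10 KLF genes described, 7 other KLF genes and 9 SP factors, with 1 library per column and white lines between the groups. KLF8 stands out in MES, and KLF2, SP6 and SP7 in HEP.

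The genes nearest in pattern were sought by the Euclidean distance of log2(signal + 1), centred on each gene's mean over the 4 libraries, among 8169 genes with a signal of 5 or more in any library. For KLF1 these were HES4, DLL4 and CFP, at distances of 0.53, 0.70 and 0.71. HES4 had its signal at 0.12 (hESC), 0.61 (MES), 8.37 (HEP) and 21.3 (HPC). ECM1, LRRN4 and SELE lay nearest to KLF2, at 0.21, 0.39 and 0.40, with ECM1 at 0.07, 0.25, 12.1 and 1.09. NFKBIA, BACE1 and CA2 lay nearest to KLF6, at 0.30, 0.30 and 0.34, with NFKBIA at 9.50, 87.7, 38.0 and 21.0. With 4 libraries many genes can lie close by, and the distances describe likeness of pattern alone.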

How the data were processed

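Each library's table holds a signal per gene that the authors normalised and deposited with 2 decimals. The submitters' processing notes name hg19 as the build and RSEM, Bowtie and BWA as tools. Versions, roles, annotation and strand use are not stated there, nor is whether the signal is FPKM or TPM. RNA libraries were made with a TruSeq kit, per the labels' protocols. Each table had 17634 rows; 4 rows with a symbol given more than once were left out. All 49 possible non-zero values below 0.5 occurred in every library, so no step of whole reads was seen and the depth is unknown. Signals summed to between 306724 (HEP) and 426980 (hESC).

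Computed here (Python 3.11.15, pandas 2.3.3, numpy 2.4.6) were log2 differences of (signal + 1), a scale that understates differences of low genes, and calls by size. The GC trend was the median log2 deviation from a gene's mean in 50 GC bins, from GENCODE 29 transcripts matched for 98.9% of genes, averaged over 5 bins. These medians were not centred within a library, so the removal also rescaled each library. Alternatives were other pseudocounts and minimums, median-of-ratios, upper quartile and common-total scaling, and removal of that trend. Motifs were searched in RefSeq promoters, in a table of another build than hg19. The members and gene lists were chosen with earlier results of these data known. From each list, genes with the largest called differences are named, plus the 3 genes nearest in pattern to each called member; any other gene named was picked after its values were seen.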

Additional observations from a re-analysis of the deposited data

How the results depend on the processing

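Across 8 alternatives, the 7 called differences of single members kept their direction in all 56 values and their call in 46. KLF1 in HPC kept its call in all 8, at 1.39 to 1.99 against HEP and 2.91 to 7.61 against hESC. KLF6 in MES against hESC (1.61 to 3.38), KLF1 (1.22 to 2.84) and KLF2 (1.65 to 4.44) in HEP against MES, and KLF2 in HPC against HEP (-3.42 to -1.50) each lost theirs with a minimum of 20 alone, which their signals do not reach. KLF6 in HEP against MES ranged from -1.26 to -0.31. Its count of 1 lower member became 0 with a pseudocount of 5, a minimum of 20, median-of-ratios, upper quartile or common-total scaling, or the GC trend removed, and 2 with no minimum, by adding KLF5. With no minimum, members higher numbered 3 in MES against hESC, by adding KLF1 and KLF5, and 2 in HPC against hESC, by adding KLF6. With a minimum of 20, members higher numbered 0 in MES against hESC and 0 in HEP against MES, and members lower 0 in HPC against HEP. Median-of-ratios scaling raised log2 ratios to hESC by 0.13 (MES), 0.46 (HEP) and 0.48 (HPC). No paired analysis was possible because each group is 1 library. Unknown depth limits all signals below 1, those of KLF2, KLF4 and KLF5 in hESC included.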
